A study of Mus musculus with 32 samples.

Results

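The 10 genes described here belong to the INK4 and p53 pathways of growth arrest and were followed through mouse skin and epidermal organoids: Cdkn2a and Cdkn2b of the INK4 family, Trp53, which encodes p53, and 7 genes that p53 controls or is controlled by (Cdkn1a, Mdm2, Ccng1, Trp53inp1, Aen, Btg2 and Bbc3). They were chosen by name, with earlier results of these data known, from 19974 gene names in the count data, and all 10 were found. The question was where these genes were high or low in skin, in freshly grown organoids and in organoids kept in culture for months. Organoids are clusters of cells grown in a gel, here from the epidermis of Bl/6 mice, with no transgene or mutation named in the labels.

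Cdkn2a uses separate first exons to make a pair of unrelated proteins. p16INK4a blocks the cyclin D-dependent kinases that release E2F from the retinoblastoma protein, and p19ARF binds the ubiquitin ligase MDM2 and so stabilises p53. Cdkn2b encodes p15INK4b, a close relative of p16INK4a that TGF-beta is known to induce in keratinocytes. p53 in turn switches on Cdkn1a, whose product p21 inhibits cyclin-dependent kinases, and Mdm2, which limits p53. Keratinocytes in long culture on plastic are known for a rising p16INK4a level that ends their growth.

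Gene expression was measured by CEL-seq2, which counts transcripts at their 3′ ends, in 32 libraries. The oldest cultures, here late organoids, stood at passages 23 to 30 and 6 months or less in culture, with 6 libraries, all in forskolin, which raises cyclic AMP, plus Fgf1. Early organoids stood at passages 7 to 12 and 3 months or less, with 12 libraries: 4 in forskolin plus Fgf10, 2 in forskolin plus Fgf1, 4 in forskolin plus a TgfB inhibitor and 2 in the TgfB inhibitor alone. Unpassaged organoids (passage 0) gave 1 library for each of the same 4 media and 1 with forskolin alone. All organoids were taken at 7 days, as bulk cells. Tissue gave 3 libraries of interfollicular epidermis sorted as Itga6+Sca1+ cells (sorted epidermis), 3 of anagen hair follicles and 3 of anagen and telogen follicles mixed. Values are CPM, a gene's count as a share of its library's total without spike-ins, scaled to 1000000. A gene passed the test when the adjusted p of edgeR's quasi-likelihood test, adjusted over all genes tested by the Benjamini-Hochberg method, was under 0.05. Whether replicates are different animals or cultures is not stated, and each p therefore reflects only how far these samples scatter, which may be technical.

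Library totals ran from 412582 to 3351435 counts (median 1505354), with 412582 to 3127190 in late organoids, 734041 to 2562017 in early ones, 1028720 to 2226115 in unpassaged ones and 469839 to 739531 in sorted epidermis. The libraries fell into 11 sets with identical lists of gene names, called source tables, which stand here for a batch. The 5 unpassaged libraries shared a source table with 2 early libraries, replicate 1 with Fgf10 and replicate 1 with forskolin and Fgf1. No tissue library shared one with an organoid library, and no late library with an early one, so stage or tissue and source table cannot be told apart in those comparisons. Basal keratinocyte markers were high in organoids and sorted epidermis. The summed CPM of 5 such markers was 14306 to 30323 in late, 21557 to 44480 in early and 22442 to 33744 in unpassaged organoids. In sorted epidermis it was 16489 to 20944, in mixed follicles 6926 to 12736 and in anagen follicles 330 to 2092. The sum of 5 differentiated keratinocyte markers varied more, from 88.1 to 20778 CPM in late organoids. Of 5 hair matrix and shaft markers the sum stayed at or under 45.4 CPM in every organoid and sorted epidermis library, against at least 6376 in the follicles.

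Cdkn2a lies on chromosome 4 (chr4:89274471-89294653, minus strand, GRCm38 in GENCODE M21), 11646 bases from Cdkn2b (chr4:89306299-89311039, minus strand). Its protein-coding transcripts are shown here where they join, because the deposited counts carry only the gene's name. Each line is 30 bases of the first exon in lower case followed by 30 bases of the shared second exon in capitals, on the gene's strand.
Cdkn2a-201, with the proximal first exon of p16INK4a (89281986 to 89282192): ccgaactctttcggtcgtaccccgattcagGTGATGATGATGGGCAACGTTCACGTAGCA
Cdkn2a-202, with the distal first exon of p19ARF (89294334 to 89294653): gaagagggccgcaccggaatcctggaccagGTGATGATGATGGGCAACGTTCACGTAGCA
The 852 and 895 bases of the pair share 575 exonic bases, which hold all of exon 2 and most of the last exon. A tag from those bases fits either transcript, the counts are per gene name, and every Cdkn2a value below is the sum of p16INK4a and p19ARF transcripts.

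Cdkn2a was near absent from skin and from freshly grown organoids, and present in every passaged culture. It was not listed in any of the 3 sorted epidermis libraries and was taken as 0 counts there. The limit that 0 allows, 3 counts over their summed total, would be 1.71 CPM. The unpassaged organoids had 1.22 CPM with forskolin, 3.63 with Fgf10 added, 2.92 with Fgf1 added, 1.44 with the TgfB inhibitor added and 2.25 with the inhibitor alone, from 2 to 5 counts a library. The 12 early libraries ran from 12.3 to 45.6 CPM (median 22.3) and the 6 late ones from 7.27 to 29.5 (median 20.5). Anagen follicles had 1.46, 1.97 and 0 CPM, and mixed follicles 0, 0.597 and 0.722. The early and late ranges lay wholly above all others and overlapped each other. Pooled over libraries, 18 unpassaged counts gave 2.16 CPM (95% Poisson interval 1.28 to 3.41), and the 0 counts of sorted epidermis had an upper limit of 2.11 CPM. All 5 unpassaged libraries had counts and no epidermis library did, but the gene fell under the filter on low counts, and without that filter it had adjusted p = 0.0529 in edgeR's test. These limits and intervals cover counting error only.

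Cdkn2b was already higher in unpassaged organoids, taken at 7 days, than in skin. It had 4.26, 10.8 and 3.70 CPM in sorted epidermis. Unpassaged organoids had 31.8 CPM with forskolin, 44.3 with Fgf10 added, 52.5 with Fgf1 added, 29.4 with the inhibitor added and 38.6 with the inhibitor alone, all above every skin library. Early organoids ran from 17.7 to 71.0 CPM (median 38.9) and late ones from 29.1 to 149 (median 83.4), with 4 of the 6 late libraries above every early one. Anagen follicles had 18.5, 22.4 and 14.4 CPM and mixed follicles 11.5, 22.7 and 10.8. By mean the order was late, early, unpassaged, anagen, mixed and sorted epidermis. The ranges of unpassaged organoids and anagen follicles did not overlap, nor did those of mixed follicles and sorted epidermis, while the other neighbours in that order overlapped.

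**Figure D1:**
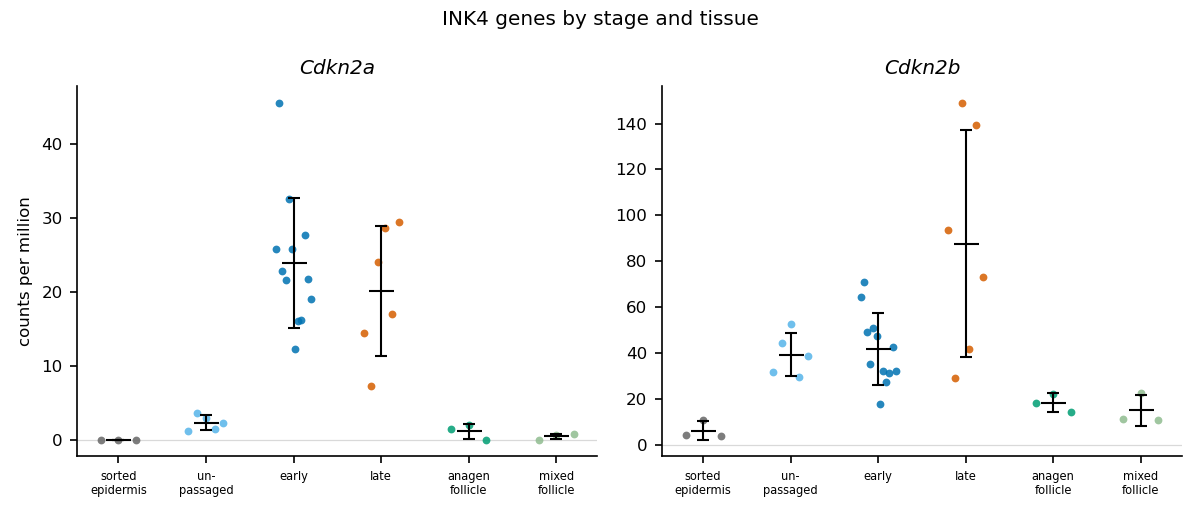
CPM of Cdkn2a and Cdkn2b in each library, by stage and tissue; points are libraries, bars the mean ± SD (n = 3, 5, 12, 6, 3 and 3 from left to right). Cdkn2a sits at or under 3.63 in the 14 libraries of tissue and unpassaged organoids and at or above 7.27 in the 18 passaged ones, while Cdkn2b is already raised in unpassaged organoids.

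Early organoids were compared with unpassaged ones, with the medium as a term (16 libraries, 4 media), to see how passaged cultures differed from freshly grown ones. The stages differed in passages and in time in culture, which cannot be told apart here. Passaging in what follows stands for both. The unpassaged library with forskolin alone has no early partner and was left out of this fit, though its values are given. Of the 10 genes, 4 were higher in early organoids, none was lower and 6 did not pass. Among all 9984 genes tested 11.4% passed in either direction, 5.10% as higher and 6.28% as lower (44.8% of the called genes were higher, and 26.1% when scaled by library totals alone). The 4 were Cdkn2a and the p53 targets Ccng1, Trp53inp1 and Aen. Trp53, Mdm2 and Cdkn1a were not among them, and neither was Cdkn2b.

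Cdkn2a had the largest change of the 10. Early organoids averaged 23.9 ± 8.82 CPM (SD, n = 12) and unpassaged ones 2.29 ± 1.01 (SD, n = 5), a log2 fold change of 3.37 (SE 0.33, adjusted p = 1.61e-05). The gene passed the filter on low counts only through the early libraries, with 9 to 111 counts each. The unpassaged ones of the fit held 3 or 5, so this p is a description only. Every early library was higher than every unpassaged one. The ratio of pooled CPM was 7.02 with forskolin and Fgf10 (95% counting interval 2.95 to 21.9), 12.1 with forskolin and Fgf1 (4.09 to 59.5), 12.9 with forskolin and the inhibitor (4.30 to 63.3) and 9.07 with the inhibitor alone (3.62 to 29.2). The intervals overlapped throughout, so no difference between media was detectable at 3 or 5 unpassaged counts. In the source table that held both stages, Cdkn2a had 25.8 CPM in the early library with Fgf10 and 45.6 in that with Fgf1, against 3.63 and 2.92 CPM in the unpassaged libraries of the same media. With source table as a term the change was 3.59 (adjusted p = 0.00130).

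Ccng1, which encodes cyclin G1, a partner of a phosphatase that acts on MDM2, ran from 110 to 210 CPM (median 137) in early organoids, against 104, 85.8, 84.6, 92.0 and 84.9 CPM in the unpassaged ones (log2 fold change 0.82, SE 0.16, adjusted p = 0.00379). The ranges did not overlap. Trp53inp1, which encodes a stress-induced nuclear protein that promotes p53 activity, ran from 12.3 to 41.6 CPM (median 21.1) in early organoids, against 10.4, 10.9, 10.7, 5.78 and 4.94 CPM in unpassaged ones (1.66, SE 0.27, adjusted p = 0.00145). These ranges did not overlap either. Aen, an apoptosis-enhancing nuclease, ran from 23.2 to 54.5 CPM (median 32.7) in early organoids, against 20.2, 11.6, 9.72, 22.2 and 26.1 CPM in unpassaged ones (1.13, SE 0.24, adjusted p = 0.00752). Within each of the 4 media, all early libraries were above the unpassaged one for these 3 genes and for Cdkn2a. How many of all genes were apart like this was not counted, here or in the other comparisons. Nothing particular to these genes can therefore be read from it. For Aen the early mean was 3.72 times the unpassaged value with forskolin and Fgf10 but 1.15 times with forskolin and the inhibitor.

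**Figure D2:**
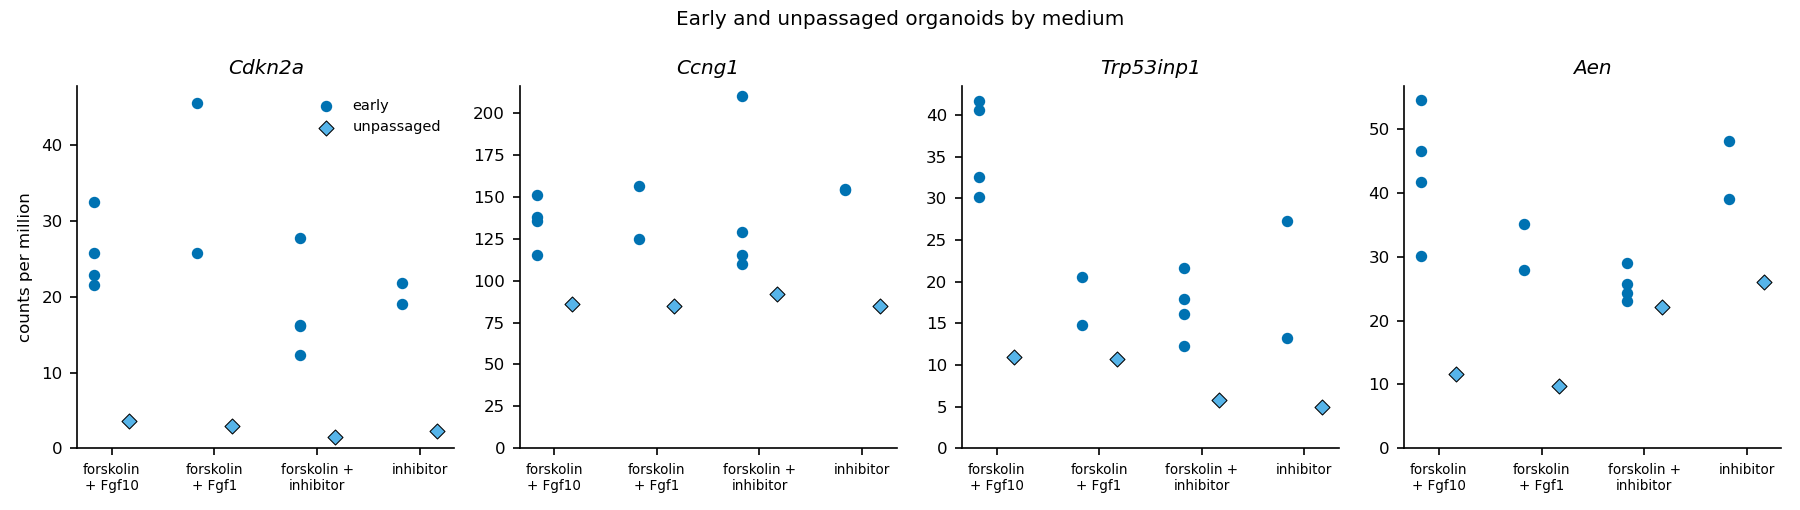
CPM of the 4 genes that were higher after passaging, by medium; circles are early libraries (4, 2, 4 and 2 from left to right), diamonds the 1 unpassaged library of that medium. Every circle lies above its diamond, and as a ratio the gap runs from 7.02 to 12.9 for Cdkn2a and is smallest for Aen with forskolin and the inhibitor (1.15).

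Trp53, its inhibitor Mdm2 and Cdkn1a did not pass. Trp53 ran from 57.1 to 159 CPM (median 114) in early organoids, against 58.3 to 141 CPM (median 96.7) in unpassaged ones (log2 fold change 0.42, SE 0.21, adjusted p = 0.198). Mdm2 ran from 35.2 to 75.7 CPM in early and from 29.1 to 50.8 in unpassaged organoids (0.56, SE 0.20, adjusted p = 0.0787), and Cdkn1a from 698 to 1285 in early and from 646 to 1788 in unpassaged ones (0.53, SE 0.18, adjusted p = 0.0672). Cdkn2b averaged 41.8 ± 15.6 CPM in early organoids (SD, n = 12) and 39.3 ± 9.41 in unpassaged ones (SD, n = 5; 0.18, SE 0.20, adjusted p = 0.578). Btg2, an antiproliferative adaptor of the deadenylase complex (0.99, SE 0.47, adjusted p = 0.177), and Bbc3, which encodes the proapoptotic BH3 protein PUMA (1.34, SE 0.50, adjusted p = 0.0881), did not pass. The estimate for all 6 was above 0, and some passed under another setting: Btg2 without the filter on low counts (adjusted p = 0.00255), Cdkn1a with DESeq2 (0.0260) or without the unpassaged library with forskolin and Fgf1 (0.0356), early forskolin and Fgf1 replicate 1 (0.0412) or early forskolin and inhibitor replicate 1 (0.0477), Mdm2 without early forskolin and Fgf10 replicate 1 (0.0473), and Bbc3 without early forskolin and inhibitor replicate 1 (0.0456).

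The 3 p53 target calls did not hold in every fit. With source table as a term, Ccng1 had adjusted p = 0.311, Trp53inp1 0.0691 and Aen 0.151, at log2 fold changes of 0.67, 1.76 and 1.33. In that fit only the 2 early libraries of the shared table separate stage from source table. Aen was also lost without the unpassaged library with forskolin and Fgf10 (adjusted p = 0.0697) and in the replicate block fit (adjusted p = 0.103). Markers of differentiated keratinocytes moved with the same comparison: 2 of 5 were higher (Lor 3.08 and Krt1 2.54 on the log2 scale), and their summed CPM was 2304 to 34191 (median 16296) in early organoids and 2700 to 12460 (median 3529) in unpassaged ones. Of 5 basal markers 2 were lower (Itga6 and Trp63). Of 7 fibroblast markers 1 could be tested and was lower (Sparc, -1.35), as was the 1 immune marker that could be tested (H2-Ab1, -3.90, adjusted p = 0.00670). The fibroblast markers' summed CPM was 7.27 to 540 (median 20.6) in early and 16.9 to 425 (median 234) in unpassaged organoids, with Lum at 0 in all of them. The part of these markers in the result was not tested. In bulk RNA, fewer cells of a type and less RNA per cell cannot be told apart.

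Unpassaged organoids, taken at 7 days, were compared with sorted epidermis. The 5 unpassaged libraries, 1 for each medium, served as the replicates of that stage, so its spread holds differences between media. The epidermis held sorted basal cells and the organoids bulk cells, so sort and culture cannot be told apart here. Of the 8 genes that passed the filter on low counts, 4 were higher in unpassaged organoids, 1 was lower and 3 did not pass, beside 46.5% of all 9865 genes tested that passed (24.1% higher and 22.5% lower; 51.7% of the called genes were higher, and 41.5% when scaled by library totals alone). Cdkn2a and Bbc3 were too low to be tested. Cdkn2b averaged 39.3 ± 9.41 CPM in unpassaged organoids (SD, n = 5) and 6.26 ± 3.96 in sorted epidermis (SD, n = 3; log2 fold change 2.71, SE 0.41, adjusted p = 0.000235). Cdkn1a had 1788, 646, 875, 647 and 740 CPM in unpassaged organoids, against 519, 373 and 268 CPM in sorted epidermis (1.51, SE 0.39, adjusted p = 0.00771). The ranges of these genes did not overlap, and how many of all genes were apart in this way was not counted.

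Ccng1 averaged 90.3 ± 8.28 CPM in unpassaged organoids and 40.8 ± 7.70 in sorted epidermis, again with no overlap (1.33, SE 0.22, adjusted p = 0.000472). Trp53 had 95.5, 96.7, 58.3, 98.2 and 141 CPM in unpassaged organoids, against 63.9, 29.7 and 61.0 CPM in sorted epidermis, ranges that overlapped (1.15, SE 0.30, adjusted p = 0.00792, and adjusted p = 0.0516 without sorted epidermis replicate 2). Trp53inp1 was lower. It averaged 8.54 ± 2.93 CPM in unpassaged organoids, against 84.1 ± 25.8 in sorted epidermis, and all 5 unpassaged libraries lay below all 3 of epidermis (-3.13, SE 0.34, adjusted p = 1.85e-05). Mdm2 (-0.08, SE 0.31), Aen (0.63, SE 0.44) and Btg2 (0.94, SE 0.45) did not pass; Btg2 did without the filter (adjusted p = 0.0438) or without the unpassaged library with forskolin and Fgf10 (0.0375). Immune markers differed in the same comparison, with 3 of 4 tested lower and a summed CPM of 13.03 to 72.8 in unpassaged organoids and 215 to 377 in sorted epidermis, and 3 of 5 markers of differentiated keratinocytes were higher. Their part in the result was not tested.

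Late organoids were compared with sorted epidermis, in a fit of 17 libraries with the follicles and the early cultures in forskolin and Fgf1. Of the 10 genes 4 were higher in late organoids, 1 was lower and 5 did not pass, beside 21.8% of all 10843 genes tested (12.2% higher and 9.53% lower). Cdkn2a averaged 20.1 ± 8.76 CPM in late organoids (SD, n = 6), against 0 counts in sorted epidermis, where it was not listed. That is at least 11.7-fold higher when set against 3 counts over the summed epidermis total (adjusted p = 0.000486). It passed the filter on low counts only through the organoid libraries, so this p is a description only. Cdkn2b averaged 87.6 ± 49.4 CPM in late organoids and 6.26 ± 3.96 in sorted epidermis (log2 fold change 3.94, SE 0.61, adjusted p = 0.000210). Neither range overlapped, and both calls held without any single library.

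Ccng1 had 111, 77.6, 168, 83.3, 37.1 and 33.3 CPM in late replicates 1 to 6, against 31.9, 46.0 and 44.4 CPM in sorted epidermis, so the last 2 late libraries lay within the epidermis range (log2 fold change 1.22, SE 0.43, adjusted p = 0.0498). Btg2 ran from 19.5 to 68.1 CPM (median 50.7) in late organoids, against 10.6, 20.3 and 27.7 CPM in sorted epidermis (1.45, SE 0.50, adjusted p = 0.0470), ranges that overlapped. Trp53inp1 was lower, with 25.2 to 59.9 CPM (median 35.6) in late organoids, against 111, 82.5 and 59.2 CPM in sorted epidermis (-0.95, SE 0.28, adjusted p = 0.0223), overlapping in 1 library of each. Cdkn1a (0.99, SE 0.41, adjusted p = 0.0925), Aen (0.78, SE 0.51), Mdm2 (0.46, SE 0.38), Trp53 (0.04, SE 0.55) and Bbc3 (0.01, SE 0.80) did not pass. The Trp53 range of late organoids, 9.28 to 75.5 CPM, held the whole epidermis range.

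The calls of Ccng1, Btg2 and Trp53inp1 were lost in 10, 12 and 6 of 18 alternatives. Ccng1 did not pass without sorted epidermis replicate 1, 2 or 3 (adjusted p = 0.182, 0.109 and 0.113) or late replicate 1, 3 or 4 (0.0688, 0.100 and 0.0557), Btg2 not without sorted epidermis replicate 1, 2 or 3 (0.189, 0.127 and 0.0658) or late replicate 2, 4, 5 or 6 (0.0653, 0.0647, 0.0923 and 0.0651), and Trp53inp1 not without sorted epidermis replicate 1 or 2 (0.141 and 0.0764). Under other settings Ccng1 was lost with upper quartile scaling (0.0719), scaling by library totals (0.175), a fit of both groups alone (0.100) and late libraries 4 to 6 (0.275), Btg2 with those scalings (0.0598 and 0.0983), that fit (0.0782), the replicate block (0.316) and late libraries 1 to 3 (0.268), and Trp53inp1 without the filter (0.0953), with the block (0.106), in that fit (0.0551) and with late libraries 4 to 6 (0.0883). Cdkn1a passed with DESeq2 (0.0360) and with late libraries 4 to 6 (0.0487). The epidermis held sorted basal cells and the organoids bulk cells, so sort and culture cannot be told apart. Of 5 markers of differentiated keratinocytes 2 were higher, Lor (4.93) and Ivl (3.63). The 5 summed to 88.1 to 20778 CPM in late organoids and 2763 to 2941 in sorted epidermis. Immune markers had a summed CPM of 2.60 to 119 in late organoids and 215 to 377 in sorted epidermis, with 3 of 4 tested lower. Fibroblast markers had 204 to 1116 and 70.2 to 131, with Sparc higher (2.73). The part of these markers in the result was not tested.

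Late and early organoids in the same medium, forskolin and Fgf1, were compared to see whether the genes differed between passages 7 to 12 and passages 23 to 30. Of the 10 genes 1 passed, Trp53, which was lower in late organoids, beside 6.71% of all 9919 genes tested (2.99% higher and 3.72% lower). It had 75.5, 70.3, 42.9, 62.5, 9.28 and 24.8 CPM in late replicates 1 to 6, against 152 and 159 CPM in the early libraries, with no overlap (log2 fold change -1.86, SE 0.40, adjusted p = 0.0117). The late libraries differed widely among themselves, and the lowest rested on 6 counts. The call was lost without early replicate 1 (adjusted p = 0.0787) or 2 (adjusted p = 0.114), and in a fit of the 8 libraries alone (adjusted p = 0.160). In the other early media Trp53 had 57.1 to 151 CPM. Set against all 12 early libraries the late ones were lower by edgeR's test (-1.47, adjusted p = 0.000545), in a fit that called 3368 of all 9919 genes. Of the 6 late libraries 3 lay below every early one. Medium and time cannot be told apart in that fit.

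Neither INK4 gene passed between these stages. Cdkn2a had 14.4, 7.27, 24.0, 28.6, 17.02 and 29.5 CPM in late replicates 1 to 6, against 45.6 and 25.8 CPM in early organoids of that medium (log2 fold change -0.82, SE 0.40, adjusted p = 0.219). Cdkn2b had 93.5, 29.1, 149, 41.6, 139 and 73.3 CPM in late organoids, against 71.0 and 47.6 CPM in early ones (0.51, SE 0.48, adjusted p = 0.541). Late values lay on both sides of the early ones for Cdkn2b, and for Cdkn2a 4 of 6 were below both. Set against all 12 early libraries, Cdkn2b was higher in late organoids (0.97, adjusted p = 0.0221), and Cdkn1a (-0.66, adjusted p = 0.0178), Ccng1 (-0.86, adjusted p = 0.00843) and Aen (-0.93, adjusted p = 0.0241) were lower. With Trp53 that made 5 of the 10, beside 3368 of all 9919 genes. The media of those early libraries differ from that of the late ones, so medium and time cannot be told apart there. Trp53inp1 (1.00, SE 0.36, adjusted p = 0.0962), Mdm2 (0.22, SE 0.35), Btg2 (0.03, SE 0.60) and Bbc3 (0.72, SE 0.76) did not pass in the same-medium comparison, though Trp53inp1 did with DESeq2 (adjusted p = 0.0400), Ccng1 without late replicate 3 (0.0377) and Cdkn2a, as lower, with the replicate block (-1.89, adjusted p = 0.0193). Of 5 basal markers 1 was lower there, Krt14 (-1.60, SE 0.43, adjusted p = 0.0330). None of 5 markers of differentiated keratinocytes passed. They summed to 88.1 to 20778 CPM in late and 2304 to 34191 in all early organoids. Summed fibroblast markers were 204 to 1116 CPM in late and 7.27 to 540 in all early organoids, and immune markers 2.60 to 119 and 0 to 23.6, with a median log2 fold change of 5.07 for the 2 fibroblast markers tested and 4.62 for the 1 immune marker tested, none of which passed. The part of these markers in the result was not tested.

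**Figure D3:**
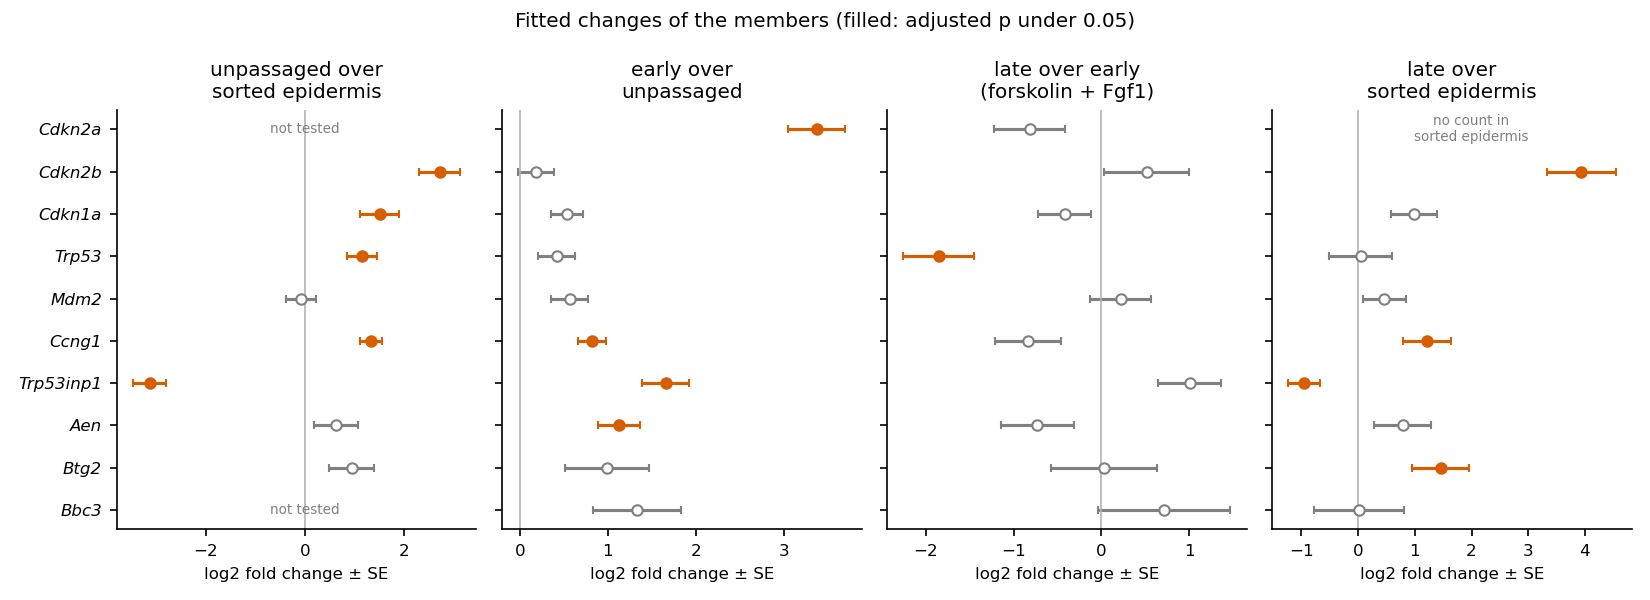
Log2 fold changes ± SE of the 10 genes in 4 comparisons, from edgeR fits; filled points passed the test (adjusted p under 0.05), and horizontal scales differ between panels. Trp53inp1 is lower in unpassaged organoids than in sorted epidermis (-3.13) and higher in early than in unpassaged ones (1.66), Cdkn2b is higher in organoids than in epidermis (2.71 and 3.94), Cdkn2a is higher after passaging (3.37), and Trp53 is higher in unpassaged organoids than in epidermis (1.15) and lower in late than in early ones (-1.86); the Cdkn2a change against sorted epidermis is left out because that tissue had no count.

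**Figure D4:**
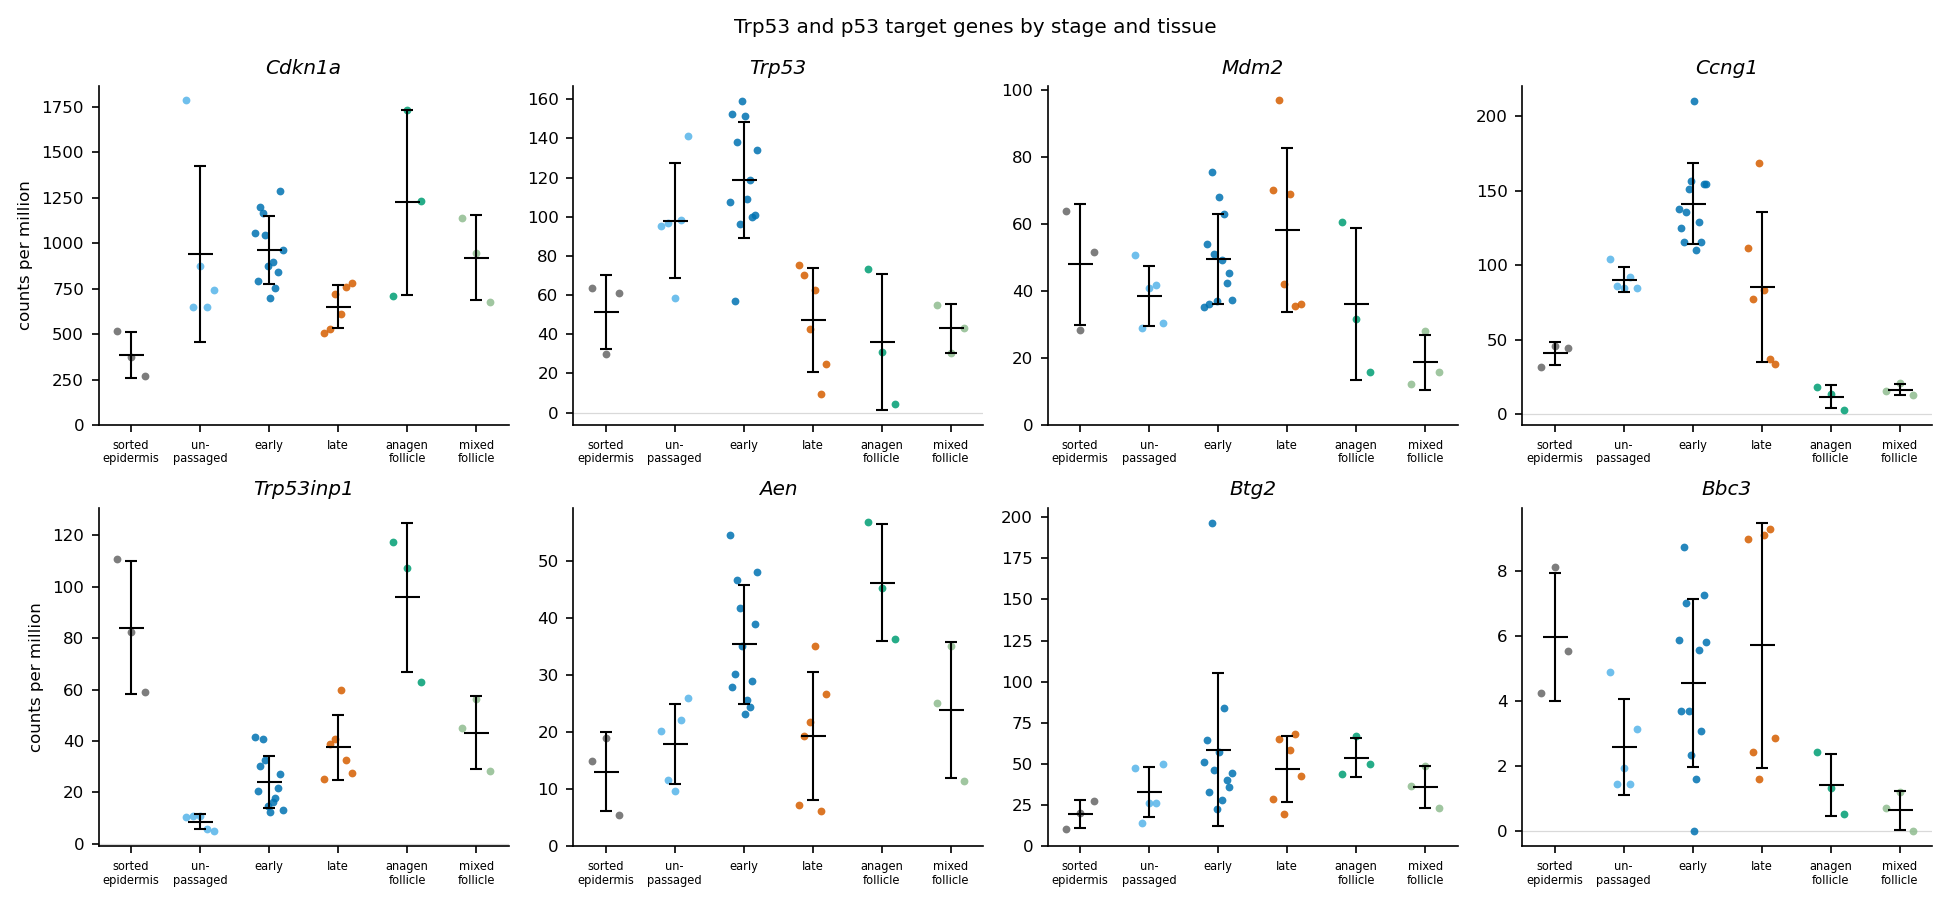
CPM of Trp53 and the 7 p53-linked genes in each library, by stage and tissue; points are libraries, bars the mean ± SD (n = 3, 5, 12, 6, 3 and 3 from left to right). Ccng1 is highest in early organoids at 110 to 210, Trp53inp1 lowest in unpassaged ones at 4.94 to 10.9, and 1 early library stands out for Btg2 at 197.

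In skin itself the genes were compared between sorted epidermis and each follicle preparation. Against anagen follicles, 4 of the 10 were lower in sorted epidermis, 1 was higher and 5 did not pass, beside 34.2% of all genes tested (14.8% higher and 19.4% lower). Against mixed follicles the same 4 were lower and 6 did not pass, beside 30.3% of all genes tested (11.9% higher and 18.5% lower). Cdkn1a had 519, 373 and 268 CPM in sorted epidermis, against 712, 1731 and 1232 CPM in anagen and 1138, 948 and 676 CPM in mixed follicles (log2 fold change -2.30, SE 0.47, adjusted p = 0.00123 and -2.35, SE 0.47, adjusted p = 0.00130). Sorted epidermis was below every follicle library for Cdkn1a. Cdkn2b (-1.97, SE 0.64, adjusted p = 0.0246 and -2.23, SE 0.65, adjusted p = 0.0149), Aen (-2.30, SE 0.55, adjusted p = 0.00359 and -1.84, SE 0.55, adjusted p = 0.0177) and Btg2 (-2.02, SE 0.55, adjusted p = 0.00830 and -1.91, SE 0.55, adjusted p = 0.0142) were lower in both comparisons, which share the epidermis libraries. The 1 gene higher in sorted epidermis was Ccng1, at 31.9, 46.0 and 44.4 CPM against 18.5, 13.8 and 3.08 CPM in anagen follicles (1.44, SE 0.50, adjusted p = 0.0312).

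By CPM all 3 epidermis libraries were also above all 3 of mixed follicles for Mdm2 (28.4 to 63.9 against 12.2 to 28.0 CPM), Ccng1 (31.9 to 46.0 against 12.99 to 20.6), Trp53inp1 (59.2 to 111 against 28.2 to 56.4) and Bbc3 (4.26 to 8.11 against 0 to 1.19), none of which passed. By library totals the median of all genes was itself 0.92 higher in sorted epidermis on the log2 scale. How many of all genes were apart in this way was not counted, so nothing particular to these 4 genes can be read from it. The fitted values are scaled by TMM, a factor per library set from most genes, and stand well below the CPM ratios there: Ccng1 had a log2 fold change of 0.24 (SE 0.49, adjusted p = 0.752).

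The tissue calls depended on that scaling. Scaled by library totals alone, the median of all genes between sorted epidermis and mixed follicles was 0.92 on the log2 scale, against -0.08 with TMM, and 77.7% of called genes were higher in sorted epidermis, against 39.1%; with upper quartile scaling it was 52.6%. Between sorted epidermis and anagen follicles the share was 61.9% by totals and 54.1% by upper quartile, against 43.4%. By totals Cdkn1a was still lower in sorted epidermis than in mixed follicles (adjusted p = 0.0271), Bbc3 was higher (2.90, adjusted p = 0.0213), and Cdkn2b (0.146), Aen (0.263) and Btg2 (0.203) did not pass. Against anagen follicles Cdkn1a, Aen and Ccng1 kept their calls by totals, and Cdkn2b (adjusted p = 0.0999) and Btg2 (0.0538) did not.

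Markers of other cells differed between the same tissues. Against mixed follicles 5 of 5 fibroblast markers tested, 2 of 2 melanocyte and 2 of 2 endothelial and red blood cell markers were lower in sorted epidermis and 3 of 5 basal keratinocyte markers were higher, and against anagen follicles 2 of 5 fibroblast and 2 of 2 melanocyte markers were lower and 4 of 4 immune and 5 of 5 basal markers were higher. Summed fibroblast markers were 70.2 to 131 CPM in sorted epidermis, 34.9 to 511 in anagen and 890 to 1922 in mixed follicles. Their part in the result was not tested.

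Some of these tissue calls rested on 1 library. The Ccng1 call was lost without anagen replicate 2 or 3 (adjusted p = 0.0612 and 0.0908) or sorted epidermis replicate 2 or 3 (0.0944 and 0.0749). Against anagen follicles the Cdkn2b call was lost without anagen replicate 3 (0.0771) or epidermis replicate 1 or 3 (0.0855 and 0.0928); against mixed follicles Cdkn2b was lost without mixed replicate 2 (0.0574) or epidermis replicate 1 or 3 (0.0585 and 0.0627), Aen without mixed replicate 2 (0.0703) or epidermis replicate 3 (0.0820), and Btg2 without epidermis replicate 1 (0.0659). Between anagen and mixed follicles none of the 10 passed by edgeR's test, and none by DESeq2, beside 6.63% of all genes (1.21% higher and 5.42% lower; 18.2% of the called genes were higher, and 42.8% by library totals). Of the 10, Ccng1 alone had an unadjusted p under 0.05 there (0.0244, log2 fold change -1.21, SE 0.49), beside 2187 of all 10843 genes. Its ranges overlapped at 3.08 to 18.5 CPM in anagen and 12.99 to 20.6 CPM in mixed follicles.

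The media were compared within early organoids. The TgfB inhibitor in place of Fgf10, with forskolin in both, gave a call for none of the 10 genes by edgeR's test, beside 0.575% of all genes (0.262% higher and 0.313% lower). Cdkn2b, a textbook TGF-beta target, had 17.7, 32.2, 27.4 and 31.4 CPM with the inhibitor, against 64.5, 49.0, 35.1 and 51.0 CPM with Fgf10, ranges that did not overlap (log2 fold change -0.95, SE 0.42, adjusted p = 0.611). Trp53inp1 had 12.3, 16.1, 17.97 and 21.6 CPM with the inhibitor, against 41.6, 30.2, 40.6 and 32.6 CPM with Fgf10, again without overlap (-1.17, SE 0.30, adjusted p = 0.101). It passed in a fit of those 8 libraries alone (adjusted p = 0.0312) and with DESeq2 (adjusted p = 0.0267). The number of all genes without overlap between these media was not counted. In the other early media, Trp53inp1 had 20.5 and 14.8 CPM with forskolin and Fgf1, values within the range with forskolin and inhibitor. With the inhibitor alone it had 27.2 and 13.3 CPM. Cdkn2b had 71.0 and 47.6 CPM with forskolin and Fgf1. With the inhibitor alone it had 42.7 and 32.3 CPM, which overlapped the Fgf10 range. Cdkn2a (-0.58, SE 0.37), Cdkn1a (-0.59, SE 0.27), Aen (-0.85, SE 0.37) and Bbc3 (-1.21, SE 0.63) had estimates below 0 and did not pass. At an unadjusted p under 0.05 in edgeR's test there were 4 of the 10 genes, beside 718 of all 9919 genes tested. Of 9 other TGF-beta targets tested 1 was lower, Tgfbi (-2.35, SE 0.37, adjusted p = 0.00641). The fibroblast marker Sparc was lower too (-3.54, SE 0.61, adjusted p = 0.00785), and its part in the result was not tested.

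For forskolin added to the inhibitor, edgeR's test called none of the 10 genes and 0.00% of all genes, with 623 genes at an unadjusted p under 0.05, and DESeq2 called 24 genes and none of the 10. Among the 10 the largest estimates were those of Bbc3 (-1.18, SE 0.78) and Aen (-0.80, SE 0.44), and no unadjusted p was under 0.05. Whether passaging changed the genes differently with and without the inhibitor was tested as an interaction, which 0.0300% of all genes and none of the 10 passed. Aen came nearest: over the libraries of that fit, early and unpassaged organoids averaged 31.6 (n = 6) and 24.1 CPM (n = 2) with the inhibitor, and 39.4 (n = 6) and 10.7 CPM (n = 2) without it (edgeR interaction -1.27 on the log2 scale, SE 0.39, unadjusted p = 0.00419, adjusted p = 0.549). For Cdkn2a these means were 18.9 and 1.85 CPM with the inhibitor, and 29.0 and 3.28 CPM without it (0.31, SE 0.69, adjusted p = 0.957).

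Promoter windows of the p53 targets were searched for the p53 site, because p53 acts by binding such sites near its target genes. Windows of 250 bases before to 50 after each start came from RefSeq (GRCm38.p6), and 9 of the 10 genes had 14 windows among them. The published p53 consensus is 20 letters, made of a repeated 10-letter palindrome. It was matched with at most 2 mismatches outside the invariant C and G of each repeat, a match that reads the same on both strands. Such a match was found in 107 of 32851 windows (0.326%) and in 2 of the 14, each with 1 mismatch. They are shown with 20 bases on either side, on the gene's strand, the match in capitals.
Ccng1, 195 bases before the start (chr11:40755442-40755501, minus strand): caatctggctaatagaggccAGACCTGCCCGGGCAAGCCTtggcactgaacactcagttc
Cdkn1a, 51 bases before the upstream of its starts (chr17:29090908-29090967, plus strand): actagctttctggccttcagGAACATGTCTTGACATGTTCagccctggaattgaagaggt
Of this pair Ccng1 was higher in early than in unpassaged organoids, and Cdkn1a did not pass there. Cdkn2a, Cdkn2b, Trp53, Mdm2, Aen, Btg2 and Bbc3 had no such letters in these windows. A match is a description of sequence and does not show binding.

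Other genes of the same pathways were counted from named lists. Of 22 further p53 targets tested for passaging, 1 was higher, the apoptosis effector Bax, at 37.8 ± 12.0 CPM in early and 22.6 ± 7.88 in unpassaged organoids (log2 fold change 0.93, SE 0.21, adjusted p = 0.0105), and 21 did not pass. Their median log2 fold change was 0.23, against 0.91 for the 10 genes and 0.01 for all genes. The 10 genes and the lists were chosen with earlier results of these data known, so these medians are a description only. Of 14 genes of the INK4-RB axis 2 were higher, the INK4 relative Cdkn2c (1.01, SE 0.25, adjusted p = 0.0169) and the retinoblastoma relative Rbl1 (0.79, SE 0.23, adjusted p = 0.0324), and 1 was lower, Cdkn2d, another INK4 gene (-1.07, SE 0.28, adjusted p = 0.0230). Of the INK4 family, then, Cdkn2a and Cdkn2c were higher, Cdkn2d was lower and Cdkn2b did not pass in the main fit. List genes were not followed under other settings. Of all genes, 1136 passed for passaging in the main fit, 96 with the replicate block and 8 with source table as a term. None of 16 Polycomb and other regulators of the locus passed edgeR's test, with 3 at an unadjusted p under 0.05, beside 2832 of all 9984 genes.

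Of 17 tested genes of the senescence-associated secretion list, 6 were lower after passaging and none was higher (median -0.52). Mmp3, a stromelysin, averaged 11.2 ± 8.96 CPM in early and 202 ± 164 CPM in unpassaged organoids (log2 fold change -3.79, SE 0.52, adjusted p = 0.000396), and Mmp13, a collagenase, 4.47 ± 4.04 and 32.1 ± 27.8 CPM (-2.32, SE 0.36, adjusted p = 0.000993). Mmp10 (-2.51, SE 0.61, adjusted p = 0.0142) and Mmp9 (-2.50, SE 0.58, adjusted p = 0.0114) were lower as well. None of 18 proliferation genes passed edgeR's test (median -0.22, 2 at an unadjusted p under 0.05), and none of 12 immediate early genes (median 0.50, 1 at an unadjusted p under 0.05). Of 15 p53 regulators and relatives 1 was lower, Trp63 (-0.996, SE 0.27, adjusted p = 0.0271), and of 8 TGF-beta targets 3 were lower, among them the collagen gene Col4a1 (-1.92, SE 0.60, adjusted p = 0.0467).

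In the comparison of unpassaged organoids with sorted epidermis 46.5% of all genes passed, against 11.4% for passaging, and the list counts stand beside that share. In unpassaged organoids against sorted epidermis 10 of 20 further p53 targets were higher and 1 lower (median 0.75). Pmaip1, which encodes the proapoptotic protein NOXA, averaged 69.5 ± 41.0 CPM in unpassaged organoids and 4.95 ± 3.99 in sorted epidermis (4.09, SE 0.68, adjusted p = 0.000427), and Sfn, which encodes the cell-cycle protein stratifin, was 2.59 higher on the log2 scale (SE 0.24, adjusted p = 6.15e-06). Of 17 secretion genes 14 were higher and 1 lower (median 5.41), of 18 proliferation genes 13 and 1 (median 2.16), and of 15 INK4-RB genes 5 and 4. Ccnd2, which encodes cyclin D2, averaged 75.8 ± 16.1 CPM in unpassaged organoids and 916 ± 31.0 in sorted epidermis (-3.39, SE 0.23, adjusted p = 7.70e-07). Of 15 p53 regulators 1 was higher and 4 were lower, among them the kinase gene Atm (-1.82, SE 0.25, adjusted p = 0.000108) and Mdm4, a relative of Mdm2 (-1.37, SE 0.22, adjusted p = 0.000326). Of 16 Polycomb and related genes 3 were higher and 5 lower, a share near that of all genes.

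Late organoids were set against the same epidermis libraries, in a comparison that 21.8% of all genes passed. Of 22 further p53 targets 7 were higher and none lower (median 0.99, against 0.04 for all genes), with Ddit4 at 189 ± 151 CPM in late organoids and 17.9 ± 12.3 in sorted epidermis (3.64, SE 0.82, adjusted p = 0.00437). Of 15 p53 regulators 4 were lower, Atm, Atr, Sirt1 and Ep300, with Atm at 5.77 ± 3.47 and 43.7 ± 1.52 CPM (-2.72, SE 0.54, adjusted p = 0.00176). Of 18 Polycomb and related genes 3 were higher, Phc1, Phc2 and the histone demethylase gene Kdm6b, and 1 was lower, Ezh2, which encodes the methyltransferase that silences the INK4 locus in young cells (-1.13, SE 0.38, adjusted p = 0.0405), again a share near that of all genes. Of 16 secretion genes 10 were higher, and of 18 proliferation genes 8 were higher and 2 lower. Between late and early organoids the p53 target, INK4-RB and secretion lists gave 1 call each: Sfn (-2.88, SE 0.59, adjusted p = 0.00948) among the p53 targets, Cdkn1b, which encodes the kinase inhibitor p27 (2.33, SE 0.49, adjusted p = 0.0101), and the chemokine gene Ccl20 (-3.71, SE 0.64, adjusted p = 0.00352). Cdkn1b averaged 248 ± 92.7 CPM in the 6 late libraries. These list calls come from the main fit and were not followed under other settings. A fit of late organoids and early ones in the same medium alone called 1 of all genes.

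The genes most like each of 4 members over the 13 group means were ranked among 11229 genes by Pearson's r of log2 CPM, as a description only, since groups share libraries' depth and source tables. Nearest to Cdkn2a were Tmprss11d (r = 0.95), Pitx1 (0.93) and Otop3 (0.92). Pitx1, a homeobox gene, had no count in sorted epidermis, 9.23 ± 4.16 CPM in unpassaged, 182 ± 104 in early and 500 ± 244 in late organoids, and none in follicles. Nearest to Cdkn2b were Pdlim7 (0.95), Qsox1 (0.92) and Csnk2a1 (0.91), to Cdkn1a Ndel1 (0.93), Slc27a4 (0.90) and Nudt4 (0.89), and to Mdm2 Sidt2, Klk12 and Itpk1 (0.82, 0.81 and 0.81). Among the members themselves, over the same 13 means, Ccng1 followed Trp53 (r = 0.85), Btg2 followed Aen (0.76) and Cdkn2a and Cdkn2b went together (0.71), while Trp53inp1 ran against Trp53 (-0.73). Cdkn1a and Mdm2 had r of 0.09 and 0.27 with Trp53.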

How the data were processed

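The deposited files are whole-number read counts per gene, per the labels CEL-seq2 libraries, with mouse build mm10 and BWA 0.6.2-r126 named in the submitters' processing notes; no source used here gives how reads were assigned to genes. The 14 spike-in names were left out of library totals, and a gene not listed in a library was taken as 0. CPM was computed from those counts. All 32 libraries were used, grouped by the labels. Tests were edgeR 4.0.16 quasi-likelihood fits in R 4.3.3 with TMM scaling and filterByExpr (minimum count 10, minimum total 15), adjusted over all genes tested by the Benjamini-Hochberg method, and were tested on simulated data. The groups of a fit shared 1 spread: 17 libraries for late organoids and tissues, 18 for passaged organoids, 16 for passaging and 8 for unpassaged organoids against epidermis. The members and lists were chosen with earlier results of these data known. Named besides the 10 genes are at most 4 called genes per list and comparison, by size of log2 fold change, and the 3 genes most like each of 4 members. Correlations used log2 CPM. Alternatives were RLE, upper quartile and library-total scaling, no filter, DESeq2 1.42.0, a replicate block, other sets of libraries, source table as a term and each replicate left out. Transcripts came from GENCODE M21 (GRCm38) and promoter windows from RefSeq (GRCm38.p6). CEL-seq2 counts reads near the 3′ end, so levels are not per length and isoforms are not told apart. In all 38 pairs of replicates the counts differed by more than sampling noise, so every library was counted as 1 sample.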

Additional observations from a re-analysis of the deposited data

Results flagged for a closer look

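In early organoids with forskolin and Fgf10, Btg2 had 196.5 CPM in replicate 3, against 51.0, 32.9 and 46.7 CPM in the other replicates, a gap large enough to set that library apart from its group. It was the only such case in 30 pairs of a gene and a group of 4 or more libraries (3.33%), where chance gives about 1 in 20.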

How the results depend on the processing

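Of 24 called results of the 10 genes, 333 of 388 alternatives kept the call, 55 lost it and none reversed its direction; of 74 that were not called, 28 of 1194 alternatives gave a call and 86 turned the sign. Cdkn2a after passaging stayed called in 23 of 23 (log2 3.24 to 3.59, highest adjusted p = 0.00130 in edgeR or DESeq2). For late organoids against epidermis, 3 genes were called with upper quartile scaling, 3 with library totals alone, 3 with the replicate block and 2 in a fit of the compared groups alone, and genes overall numbered 1453 with the block and 1377 in that fit. For late against early organoids, genes overall numbered 1137 with DESeq2, 2171 with the block, 1 in that fit, 3368 against all early media, 1786 against the FGF media and 2036 with late libraries 1 to 3; of the 10, 2, 2, 0, 5, 3 and 3 were called, and 3 with late libraries 4 to 6. Passaging gave 96 genes with the block and 8 with source table as a term, which called 1 of the 10. The passaging and inhibitor interaction gave 103 genes unfiltered and 19 with DESeq2. The inhibitor against Fgf10 gave 115 unfiltered, 138 with DESeq2, 96 with the block and 123 in the fit alone, with 1 of the 10 called by DESeq2 and 1 in the fit alone. Added forskolin gave 19, 24, 385 and 5 genes. The cause was not tested. By library totals alone 3 of the 10 were called for epidermis against anagen and 2 against mixed follicles. Scaling by totals, splits of the late libraries, and leaving out unpassaged libraries with inhibitor, were chosen after seeing the data.

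Libraries with the same replicate number showed no strong tendency to deviate together: over 20 pairs, deviations correlated from -0.144 to 0.325. This cannot exclude that the numbers pair the samples. Leaving out 1 library gave 1296 to 2548 genes (2 to 4 of the 10) for late organoids against epidermis, 3498 to 4426 (4 to 6) for unpassaged, 203 to 1351 (3 to 6) for passaging, 0 to 5 (0) for its interaction, 44 to 1097 (0 to 2) for late against early, 2769 to 3355 (3 to 5) and 2366 to 2627 (2 to 4) for epidermis against anagen and mixed follicles, 400 to 662 (0) for anagen against mixed, 17 to 47 (0) for the inhibitor and 0 to 16 (0) for forskolin. Where that left 1 library in an arm, it was assumed to vary like the others. At under 10 counts a library, Cdkn2a in unpassaged organoids and follicles was too low for differences among them to be tested with precision.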
